A study of Mus musculus with 4 samples.

Results

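The complement genes described here are C1qa, C1qb, C1qc, C3, Cfb, Cfp, C3ar1 and C5ar1, 8 of the 31053 features in the deposited count matrices. They were taken by name as a list of complement components and receptors, and each name matched 1 feature. Their unique molecular identifiers (UMIs, 1 per captured RNA molecule) were counted by cell class and library. Cells entered with 200 or more genes and a mitochondrial share of UMIs of up to 10%.

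The libraries held live CD45-positive cells sorted from lungs of C57BL/6 mice and read by 10x Genomics 3' single-cell sequencing. The animals were wild type (WT) or carried a knockout of Rab37 (Rab37 KO), a small GTPase that directs vesicle traffic, and cells were taken at day 14. Normal lung came from animals that had received Matrigel, a basement membrane gel, and tumors from animals that had received LLC cells, a mouse lung carcinoma line. There was 1 library for each of normal WT, normal Rab37 KO, tumor WT and tumor Rab37 KO, so the data carry no measure of replicate error and no difference was tested. The ages of the mice, the number of animals behind each library and the deleted part of Rab37 are not stated in the labels.

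Complement is a cascade of secreted proteins that marks particles and cells for uptake and attracts leukocytes. In the classical pathway, the C1q protein, built from A, B and C chains, binds immune complexes or dying cells and starts the cleavage of C3. The alternative pathway amplifies that cleavage through factor B and is stabilised by properdin, and the released fragments C3a and C5a act on G protein-coupled receptors of myeloid cells. Tissue macrophages are a well-known source of C1q, while most circulating C3 is made by the liver.

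C1qa (ENSMUSG00000036887), C1qb (ENSMUSG00000036905) and C1qc (ENSMUSG00000036896) are protein-coding genes on the minus strand of chromosome 4 (build mm10, GENCODE vM21). C1qb lay at chr4:136880129-136886187, C1qc at chr4:136889804-136893065 and C1qa at chr4:136895917-136898803. The 3 genes thus fell within 18675 bases, with gaps of 3616 and 2851 bases. The other members lay apart on the minus strands of their chromosomes. C3 (ENSMUSG00000024164) was at chr17:57203970-57228136 and Cfb (ENSMUSG00000090231) at chr17:34856374-34862518. Cfp (ENSMUSG00000001128) was at chrX:20925454-20931555. C3ar1 (ENSMUSG00000040552) was at chr6:122847138-122856161 and C5ar1 (ENSMUSG00000049130) at chr7:16246743-16259540. All are protein-coding. The RefSeq promoter table (GRCm38.p6) matched 6 of the 8 members; C1qa and Cfb were without an entry. Shown are the bases before the RefSeq start of C1qb and C1qc, neighbours whose RNAs were found in the same cells, and of C3, which was highest in another class. All are read 5′ to 3′ on the minus strand, and bases inside the annotated gene were left out. Capitals mark a match to a PU.1-type motif (GAGGAA) in the first pair and to a C/EBP-type motif (TTGCNNAA) in C3.
C1qb, chr4:136886201-136886450: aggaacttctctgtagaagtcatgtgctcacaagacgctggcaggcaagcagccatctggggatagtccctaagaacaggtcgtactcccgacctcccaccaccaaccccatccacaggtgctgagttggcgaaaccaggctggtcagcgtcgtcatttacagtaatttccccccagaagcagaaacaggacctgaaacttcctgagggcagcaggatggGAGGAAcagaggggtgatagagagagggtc
C1qc, chr4:136893066-136893164: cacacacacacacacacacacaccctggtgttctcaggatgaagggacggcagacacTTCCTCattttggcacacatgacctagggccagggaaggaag
C3, chr17:57228137-57228386: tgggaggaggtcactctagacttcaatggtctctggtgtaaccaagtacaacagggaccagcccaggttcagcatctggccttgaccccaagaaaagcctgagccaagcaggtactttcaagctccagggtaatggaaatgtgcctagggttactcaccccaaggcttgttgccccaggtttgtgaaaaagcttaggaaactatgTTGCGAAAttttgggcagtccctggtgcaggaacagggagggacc
The motifs were searched on both strands over the 250 bases before each start. They were chosen after these sequences had been seen, and the 3 sequences after the matches were known. GAGGAA, 30 bases before the start of C1qb and 193 bases before that of C1qc (on the opposite strand, TTCCTC), was in 23.3% of 32851 promoters of that length. TTGCNNAA, 45 bases before the start of C3, was in 9.56%. An NF-kB-type motif was in 1.41% and matched only C3ar1 among the 6 members with an entry. An ISRE-type motif (in 2.98%) and a MAF-type motif (TGCTGAC, in 3.81%) matched none of the 6.

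After filtering and removal of called doublets, 5063 normal WT, 4646 normal Rab37 KO, 644 tumor WT and 2725 tumor Rab37 KO cells remained, with 5183771 to 34369993 UMIs per library and median depths of 3979 to 6556 UMIs per cell. Series of 4 values below keep this order. Doublets were 3.41% and 1.69% of normal cells but 0.464% and 0.147% of tumor cells, so doublets cannot be taken as removed from the tumor libraries. Pairs of libraries shared at most 8 barcodes. Ptprc, which encodes CD45, was found in 87.0% to 92.9% of cells, yet small classes with fibroblast, epithelial and endothelial markers passed the sort. Rab37 stood at 8.50 and 4.63 CPM (UMIs per 1e+06 UMIs) in the normal and tumor WT libraries, and at 0.385 and 0.266 in the KO libraries. In tumor monocyte/macrophage-like cells, Xist (RNA of the inactive X) had 1376 UMIs in WT and 0 in KO, while Y-linked genes had 1 and 2322 UMIs. Of the 1210 Xist UMIs of the whole tumor KO library, 1209 were in 46 unnamed cells that enter no comparison. Sex and genotype therefore cannot be told apart in the tumor comparison. Both normal libraries held RNA of both kinds, so sex and tissue cannot be fully told apart either. The software version in the file headers also differed between normal (3.0.1) and tumor (3.1.0), so it cannot be told apart from tissue.

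Classes were named from marker genes that hold no complement gene, and complement genes were left out of the clustering. The monocyte/macrophage-like class held 567, 498, 225 and 850 cells and the neutrophil-like class 383, 561, 209 and 1309. Alveolar macrophage-like cells numbered 995, 714, 24 and 247. Levels are CPM of the summed UMIs of a class, with exact 95% Poisson intervals. The intervals, like all those below, cover counting error only. In a summed level, fewer expressing cells and less RNA per cell cannot be told apart. CPM of different genes are not compared with each other.

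**Figure D1:**
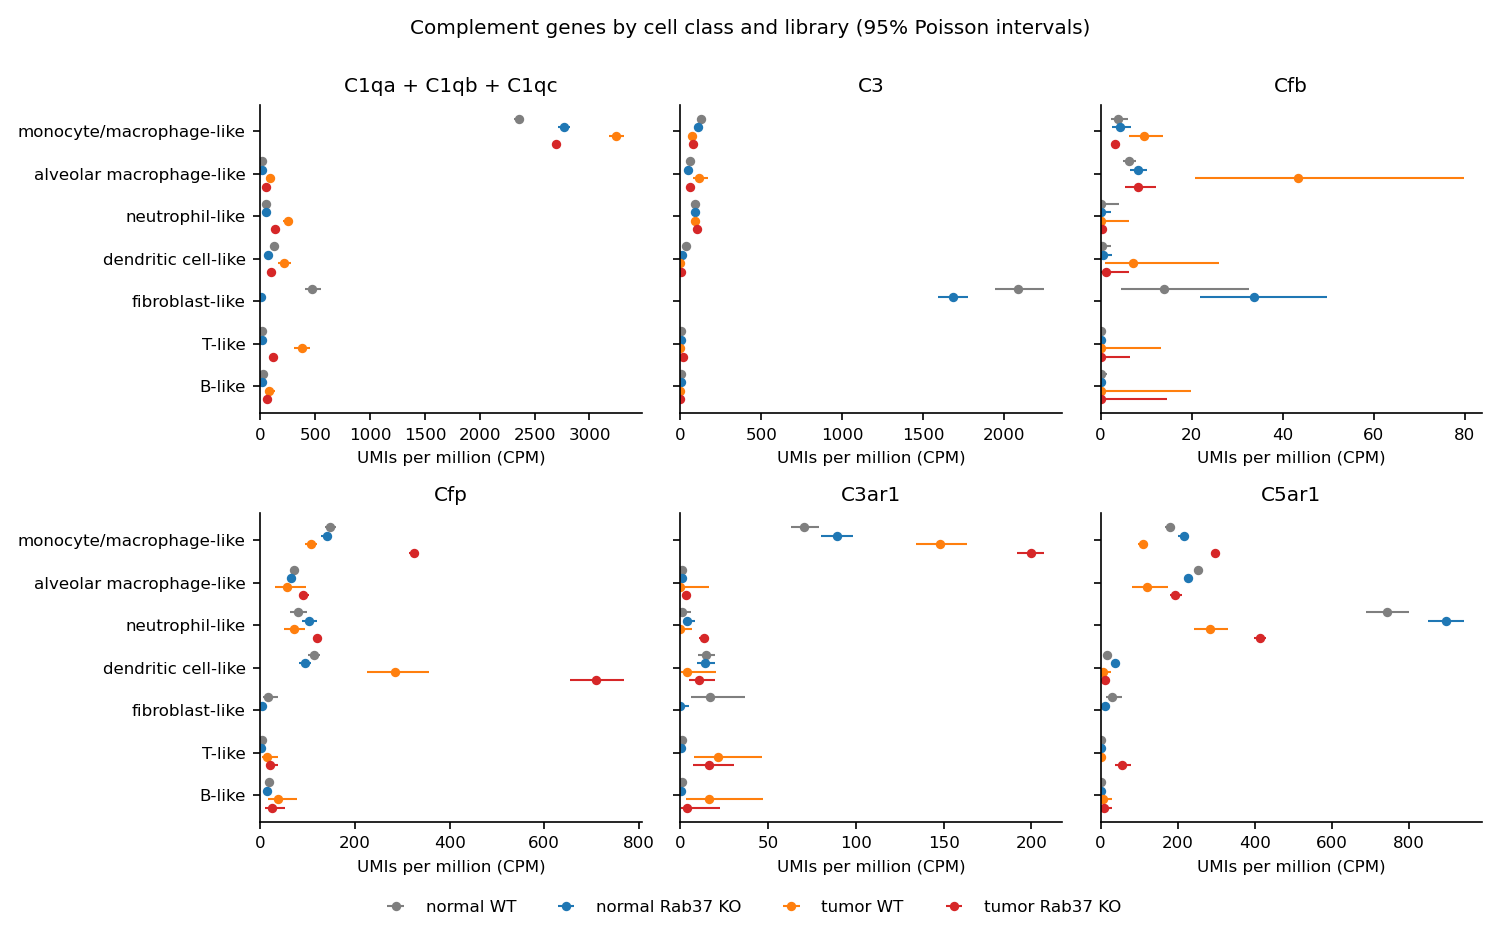
Level of each complement gene (C1q chains summed) in 7 cell classes, in CPM on linear axes, with 1 point per library and 95% Poisson intervals; classes with under 20 cells in a library are not drawn. C1q and C3ar1 sat in the monocyte/macrophage-like class, C3 was highest in fibroblast-like cells (2087 and 1680 CPM) and C5ar1 in neutrophil-like cells (743, 896, 283 and 414 CPM).

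C1q RNA was found mainly in monocyte/macrophage-like cells. Their summed C1qa, C1qb and C1qc level was 2358 CPM (2313 to 2403) in normal WT, 2767 (2717 to 2818) in normal Rab37 KO, 3245 (3179 to 3312) in tumor WT and 2691 (2664 to 2718) in tumor Rab37 KO. The class held 91.2%, 94.9%, 96.2% and 96.3% of each library's C1q UMIs. The A chain gene C1qa stood at 949, 1181, 1127 and 964 CPM in the class. C1qb, the B chain gene, stood at 832, 926, 1327 and 1109, and C1qc, the C chain gene, at 577, 661, 791 and 618. All 3 chains lay within 1.5-fold between genotypes in both tissues. Alveolar macrophage-like cells, the airspace macrophages, held only 12.1, 11.8, 86.8 and 52.2 CPM of summed C1q.

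Within the class, C1q differed widely between clusters, which were formed without it. Cluster 14, led by Ccl12, Fcrls, Ccl8, Stab1, Ms4a7 and Folr2 beside the C1q genes, reached 6285, 7099, 8792 and 9183 CPM with 119, 129, 11 and 88 cells. It was the top cluster in every library and held 83.6%, 92.0%, 20.3% and 58.5% of the class's C1q UMIs. Cluster 22 (Prg4, Saa3, Alox15, Cd5l) stood at 5750 and 6176 CPM in normal lung, from 16 and 7 cells. It stood at 1648 CPM in 38 tumor KO cells and had no tumor WT cell. Cluster 13, the classical monocyte-like cells of Ms4a4c, Ccr2 and Ly6c2, held 259, 122, 868 and 27.1 CPM. One cell gave 92.9% of its UMIs in normal WT and 53.3% in normal KO. Nonclassical monocyte-like cells, the patrolling monocytes, held 36.9 and 45.0 CPM in normal lung.

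The tumor libraries held most of their C1q in different clusters. Cluster 5.2 (Gpnmb, Spp1, Trem2, Fabp5, Mmp12) made up 51.6% of the tumor WT class and 5.53% of the tumor KO class. It held 3450 CPM (3365 to 3537) in WT and 2055 (1964 to 2149) in KO, and 68.1% of the tumor WT class's C1q UMIs. Cluster 5.0 (Ppbp, Arg1, Pf4, Vcan) made up 30.8% of the tumor KO class, with 1460 CPM and 19.2% of its C1q UMIs, but only 10 tumor WT cells. Cluster 5.1 (Vcan, Arg1, Ccl9) held 574 CPM in 32 WT cells and 931 in 202 KO cells. Cluster 5.3 (Igha, Ccl24, Arg1) held 1966 CPM in 16 WT cells and 1774 in 69 KO cells. Cluster 5.0 scored equally for classical monocyte and neutrophil markers (0.71 each).

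**Figure D2:**
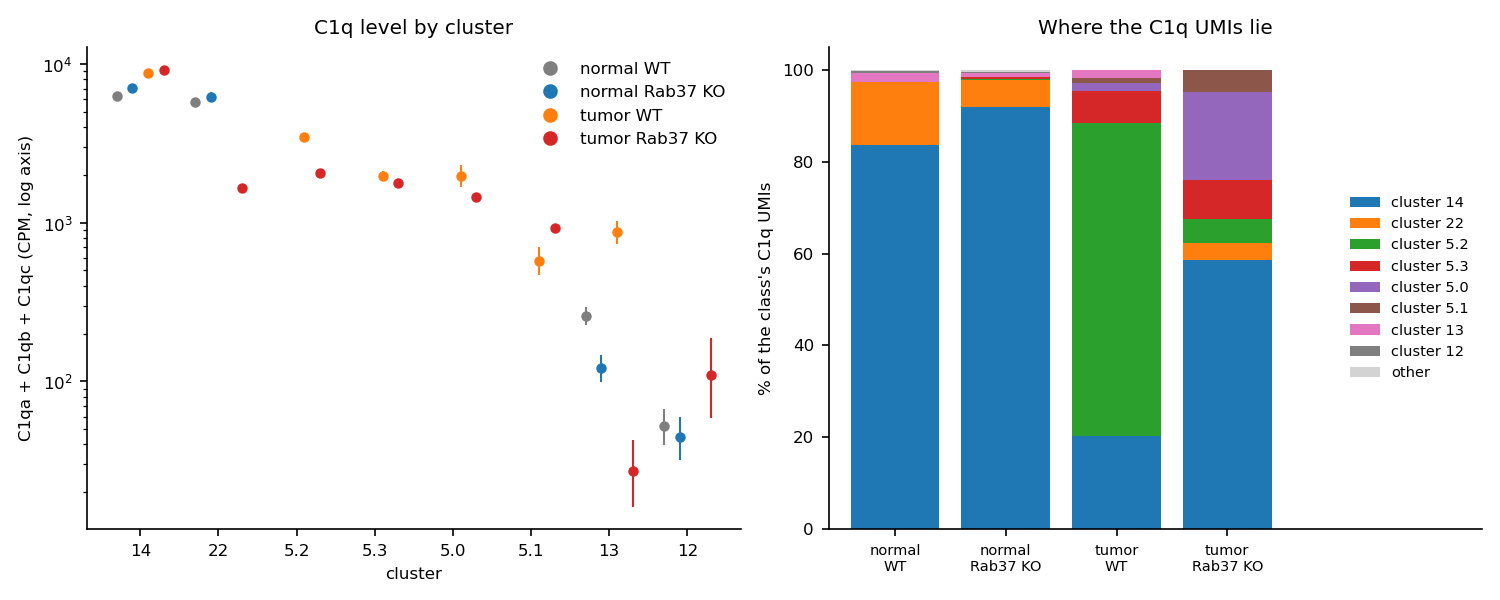
Left, summed C1q level in CPM (log axis) by monocyte/macrophage-like cluster and library, with 95% Poisson intervals; clusters with under 5 cells in a library and the level of 0 in cluster 12 of tumor WT are not drawn. Right, percent of the class's C1q UMIs by cluster: cluster 14 held 83.6%, 92.0%, 20.3% and 58.5%, and cluster 5.2 held 68.1% in tumor WT.

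The chains were also detected together. After each cell was thinned to 1500 UMIs, 74.1%, 81.1% and 89.7% of cluster 14 cells in normal WT, normal KO and tumor KO held all 3 chains, and 98.3%, 99.2% and 100% held at least 1. Fewer than 20 tumor WT cells remained in that cluster. In T-like cells, which should lack C1q, any chain was found in 2.54%, 1.59%, 18.2% and 11.0% of thinned cells, and in B-like cells in 2.82%, 2.03%, 1.92% and 12.5%. All 3 chains together were found in 1 of 1494 thinned normal WT T-like cells, in 0 of 1323 normal KO cells, in 1 of 55 tumor WT cells and in 0 of 82 tumor KO cells. Outside the class, some high sums rested on single cells. In normal WT, 1 cell gave 99.3% of C1q UMIs in pDC-like cells (plasmacytoid dendritic cells) and 1 cell gave 99.4% in fibroblast-like cells. Other sums were spread over more cells. T-like cells of tumor WT held 376 CPM, with 25.7% of the UMIs in 1 cell. Neutrophil-like cells of tumor KO held 137 CPM, with 11.4% in 1 cell.

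The ratio of C1qa to C1qb UMIs was not constant. In cluster 14 it was 1.22 (1.16 to 1.28), 1.32 (1.26 to 1.38), 1.17 (1.05 to 1.30) and 0.965 (0.936 to 0.995). The tumor KO value lay below the intervals of the other libraries, and the tumor WT value rested on 11 cells. Over the whole class the ratio was 1.14, 1.28, 0.849 and 0.870, and in tumor clusters 5.2 (0.772 in WT), 5.0 (0.785 in KO) and 5.1 (0.597 in KO) were below 1. In normal WT, clusters 22 (0.849, 0.749 to 0.963) and 13 (0.711, 0.508 to 0.991) were below 1 too. The ratio of C1qc to C1qb over the class was 0.693, 0.714, 0.596 and 0.558.

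C3, the protein on which all 3 activation routes converge, was highest in fibroblast-like cells. Their level was 2087 CPM (1940 to 2243) in 40 normal WT cells and 1680 (1588 to 1776) in 82 normal KO cells. Although they should not pass a CD45 sort and are few, they held 33.7% and 51.1% of C3 UMIs in these libraries. The tumor libraries held 1 and 0 such cells. Epithelial-like cells of normal KO stood at 161 CPM (123 to 207). In the monocyte/macrophage-like class C3 was 127 (116 to 137), 107 (97.8 to 118), 70.1 (60.7 to 80.6) and 75.1 CPM (70.6 to 79.8), so both tumor libraries lay below both normal libraries. The shares of cells with C3 after thinning to 1500 UMIs were close, at 13.5%, 13.5%, 12.3% and 12.4% (unthinned 38.1%, 39.8%, 40.9% and 46.6%). In normal WT, 1 cell of cluster 14 gave 88 of the class's 565 UMIs. Classical monocyte-like cells of normal lung, cluster 13 alone, held 189 and 185 CPM, and that cluster in tumor held 75.2 in WT (26 cells) and 262 in KO (88 cells). Neutrophil-like cells held 90.0, 91.0, 87.0 and 102 CPM and alveolar macrophage-like cells 57.0, 49.3, 117 and 59.4. The tumor WT alveolar value came from 24 cells, 1 of which gave 33.3% of the UMIs. T-like cells held at most 16.0 CPM.

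Cfb, which encodes the protease factor B of the alternative pathway, was sparse. Among classes of normal lung, its level was highest in fibroblast-like cells, at 14.0 CPM (4.55 to 32.7) in WT and 33.7 (21.8 to 49.8) in KO. Alveolar macrophage-like cells held 6.25, 8.20, 43.4 and 8.26 CPM and 72.5% and 62.5% of the UMIs of normal WT and normal KO. The tumor WT value of 43.4 came from 10 UMIs, 5 of them in 1 cell. The monocyte/macrophage-like class held 3.81, 4.24, 9.51 and 3.22 CPM, from 17, 18, 27 and 45 UMIs. In tumor WT, 22 of the 27 UMIs were in cluster 5.2. Cluster 22 had the highest levels within the class, at 24.0 (8.79 to 52.1), 62.6 (25.2 to 129) and 13.6 CPM (7.04 to 23.8) in normal WT, normal KO and tumor KO. These came from 6, 7 and 12 UMIs in 16, 7 and 38 cells. No Cfb UMI was seen in T-like or B-like cells. In the 1499 normal WT T-like cells the upper bound of the Poisson interval was 0.480 CPM.

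Cfp encodes properdin, the stabiliser of the alternative pathway convertase. In the monocyte/macrophage-like class it stood at 148 (137 to 160), 140 (129 to 152), 106 (94.4 to 119) and 325 CPM (315 to 334), highest in tumor KO. After thinning to 1500 UMIs, 10.4%, 11.4%, 12.7% and 34.4% of the cells held it (unthinned 25.9%, 31.5%, 52.0% and 77.6%), against 0.268%, 0.227%, 0% and 0% of T-like cells (unthinned 1.40%, 0.905%, 7.14% and 7.23%). Median depths were 6335, 7352, 9630 and 13206 UMIs in the class and 4684, 5506, 3119 and 5222 in T-like cells. Cluster 22 held 1162 and 1537 CPM in normal WT and normal KO and 715 in tumor KO. Dendritic cell-like cells held 113, 93.5, 285 and 710 CPM. The cDC2-like part, conventional dendritic cells marked by Cd209a and Clec10a, held 238 and 252 CPM in normal lung and 935 (860 to 1016) in 42 tumor KO cells. The 12 tumor WT cells held 433 CPM (328 to 561). Of the 42 tumor KO cells, 36 were of cluster 11.4, which had no normal cell. Its 5 tumor WT cells held 563 CPM. Neutrophil-like cells held 79.0, 102, 70.0 and 120 CPM, and alveolar macrophage-like cells 70.8, 64.7, 56.4 and 91.1.

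C3ar1, the receptor for C3a, sat in the same class as C1q. Its level there was 70.5 (63.0 to 78.8), 89.0 (80.3 to 98.5), 148 (134 to 163) and 200 CPM (192 to 207), so the tumor libraries lay above the normal ones and the 4 intervals did not overlap. The class held 81.2%, 87.7%, 97.2% and 95.4% of each library's C3ar1 UMIs. Thinned shares were 5.67%, 9.49%, 18.4% and 22.3% (unthinned 19.9%, 25.3%, 61.3% and 64.0%). In T-like cells the thinned shares were 0.134%, 0%, 1.82% and 1.22% (unthinned 0.334%, 0.0754%, 1.79% and 3.61%). In normal lung C3ar1 was high in cluster 14 (184 and 221 CPM) and cluster 22 (200 and 134), and stood at 3.70 and 15.1 CPM in cluster 13. In tumor it was also high in clusters 5.1 (307 in WT and 244 in KO) and 5.2 (155 and 137). Neutrophil-like cells held 1.10, 3.77, 0 and 13.3 CPM and alveolar macrophage-like cells at most 3.30.

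C5ar1, the receptor that draws neutrophils to C5a, was found in several myeloid classes. Neutrophil-like cells stood at 743 (688 to 801), 896 (850 to 943), 283 (242 to 330) and 414 CPM (399 to 429), with both tumor libraries below both normal ones. Thinned shares were 58.1%, 69.9%, 36.7% and 44.3% (unthinned 69.7%, 83.6%, 50.2% and 74.3%), and at most 2.44% in T-like cells (unthinned at most 7.23%). Median depths of the neutrophil-like cells were 2236, 2618, 2154 and 3484 UMIs. The ratio of tumor to normal was 0.381 (0.320 to 0.452) in WT and 0.462 (0.434 to 0.492) in KO. With clusters weighted alike, which needs 5 cells of a cluster in both libraries, the KO ratio was 0.268. That value left out clusters 6 and 8. It rested on clusters 3 and 17, with 9 tumor KO cells in the first and 8 normal KO cells in the second. Normal neutrophil-like cells were mostly cluster 3 (369 of 383 and 550 of 561 cells), and tumor ones mostly clusters 6 (78 and 596 cells), 8 (103 and 523) and 17 (19 and 181). Alveolar macrophage-like cells held 253, 226, 121 and 194 CPM and, being numerous, 64.6% and 46.7% of C5ar1 UMIs in normal WT and normal KO. In the monocyte/macrophage-like class C5ar1 stood at 179 (167 to 192), 216 (202 to 230), 109 (96.7 to 121) and 297 CPM (288 to 306), lowest in tumor WT and highest in tumor KO. Nonclassical monocyte-like cluster 16.0 held 368 and 509 CPM in normal lung, and the larger nonclassical cluster 12 held 69.9 and 81.2. The markers of cluster 16.0 also scored 0.74 for neutrophils, beside 0.90 for nonclassical monocytes. Cluster 14 held 246 and 277 CPM.

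Both receptors were found in the same thinned cell in 2.38%, 3.59%, 3.77% and 8.83% of monocyte/macrophage-like cells. C3ar1 alone was found in 3.29%, 5.91%, 14.6% and 13.5%, and C5ar1 alone in 16.1%, 21.1%, 10.4% and 21.8%. In neutrophil-like cells C3ar1 was found without C5ar1 in at most 0.561%.

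Rab37 KO and WT were compared within tumor in the monocyte/macrophage-like class. A member was counted as higher or lower at 1.5-fold, given at least 10 UMIs over both libraries, and all 8 met that floor. In tumor, 2 members were higher in KO (Cfp and C5ar1), where 23.0% of 12261 genes were, and 1 was lower (Cfb), where 21.3% were. Both counts are near what those shares give for 8 genes. The median log2 ratio was -0.06 over the 8 members and -0.01 over all genes. The ratio of KO to WT was 3.06 (2.73 to 3.45) for Cfp, 2.73 (2.43 to 3.08) for C5ar1 and 0.339 (0.206 to 0.568) for Cfb. C3ar1 had a ratio of 1.35 (1.21 to 1.49), C3 of 1.07 (0.920 to 1.25) and summed C1q of 0.829 (0.810 to 0.848). The C1q ratio holds for the pooled class only. Within its macrophage-like and classical monocyte-like parts, summed C1q was higher in KO. Macrophage-like cells were 143 of the 225 tumor WT cells of the class and 242 of the 850 tumor KO cells. The part of this makeup in the C1q ratio was not tested. The direction for C1qa and C1qb was not stable, with ratios of 0.692 to 1.08 and 0.684 to 1.06 over 12 alternative settings.

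Since different clusters made up the class in the 2 tumor libraries (5.2 in WT, 5.0 and 5.1 in KO), the ratio was also taken within clusters. For Cfp it was 3.75 (2.46 to 6.02) in cluster 14, 2.05 (1.52 to 2.84) in 5.3, 1.98 (1.42 to 2.85) in 5.1 and 1.46 (1.15 to 1.86) in 5.2. It was 1.26 (0.802 to 2.09) in 5.0 and 1.04 (0.595 to 1.93) in 13, where the intervals include 1. With clusters weighted alike, the Cfp ratio over the class was 1.70. Cfp is X-linked and the tumor libraries differ in sex-linked RNA, so its ratio cannot be told apart from one between sexes. For C5ar1 the ratio was 3.02 (2.09 to 4.53) in cluster 14, 2.15 (1.25 to 4.04) in 5.0, 1.82 (1.43 to 2.30) in 5.2 and 1.81 (1.35 to 2.47) in 5.3. It was 0.790 (0.598 to 1.06) in 5.1 and 1.01 (0.454 to 2.54) in 13, and 1.51 over the class with clusters weighted alike. C3ar1 ratios went both ways. They were 1.92 (1.37 to 2.76) in cluster 14, 2.22 (1.48 to 3.44) in 5.3 and 4.97 (1.69 to 24.1, with 3 UMIs in WT) in 5.0. They were 0.795 (0.597 to 1.08) in 5.1, 0.883 (0.711 to 1.09) in 5.2 and 0.221 (0.109 to 0.445) in 13. In tumor WT, cluster 14 rested on 11 cells, 5.3 on 16 and 5.0 on 10. The Cfb difference lay in cluster 5.2, with 22 UMIs in WT and 1 in KO, and without that cluster the ratio was 0.690. C3 ratios also differed in direction, at 3.49 (1.99 to 6.68) in cluster 13 and 0.383 (0.241 to 0.587) in 5.2. Summed C1q went both ways too. It was higher in KO in cluster 14 (9183 against 8792 CPM in WT) and 5.1 (931 against 574). It was lower in KO in 5.2 (2055 against 3450), 5.3 (1774 against 1966), 5.0 (1460 against 1972) and 13 (27.1 against 868). In tumor WT, 1 cell gave 81.8% of the C1q UMIs of 5.0 and 56.6% of those of 5.1 came from 1 cell.

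Neutrophil-marker RNA was also highest in the tumor KO class, and its part in the ratios was not tested beyond the values given here. The 10 markers took 0.739%, 1.08%, 1.01% and 2.36% of the class's UMIs, and 17.6%, 19.9%, 14.7% and 42.7% of its cells had at least 1% of such UMIs. None of the 10 was at 0 in any of the 4 libraries. In cluster 5.0 of tumor KO the share of such cells was 84.0%. Without all such cells of the class the ratio of tumor KO to WT was 3.26 for Cfp and 2.38 for C5ar1.

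**Figure D3:**
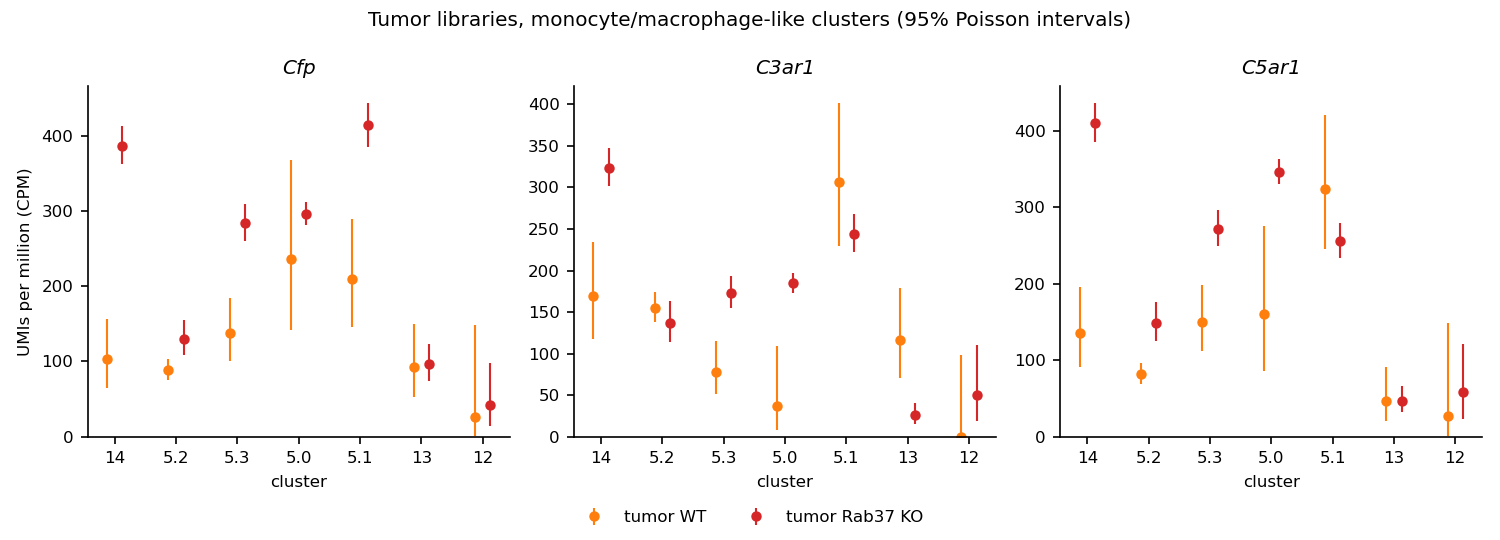
Cfp, C3ar1 and C5ar1 in CPM (linear axes) by monocyte/macrophage-like cluster in tumor WT and tumor Rab37 KO, with 95% Poisson intervals. Cluster 14 was higher in KO for Cfp (387 against 103) and C5ar1 (410 against 136), while C5ar1 in cluster 5.1 was 256 in KO and 324 in WT.

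Cfp and the receptors were also compared in other tumor classes. In neutrophil-like cells, Cfp was 1.72-fold (1.26 to 2.41) and C5ar1 1.46-fold (1.25 to 1.72) of the WT level in KO. C3ar1 had 99 UMIs in KO and 0 in 209 WT cells, but 3.44% of the KO cells held a UMI beside 3.61% of T-like cells in that library, so it is not read as neutrophil expression. In the T-like cells, 1 cell held 7 of the 9 UMIs. Dendritic cell-like cells held Cfp at 2.49-fold (1.97 to 3.19) in KO (1.62-fold with clusters weighted alike), with cluster 11.4 at 1.71-fold (1.22 to 2.47). That cluster had 5 tumor WT cells. In alveolar macrophage-like cells the interval for Cfp (ratio 1.62, 0.929 to 3.07) included 1. With cells classed by their own markers, that ratio was 0.683. C5ar1 in these cells had a ratio of 1.60 (1.09 to 2.43), with 24 WT cells.

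In normal lung no member differed by 1.5-fold between KO and WT in the monocyte/macrophage-like class. Of 11478 genes, 7.89% were higher and 7.06% lower. Ratios ran from 0.849 for C3 (0.749 to 0.962) to 1.26 for C3ar1 (1.08 to 1.47), with a median log2 ratio of 0.18 beside 0.05 over all genes. Cfp, the member furthest apart in tumor, had a ratio of 0.947 (0.846 to 1.06), and C5ar1 one of 1.20 (1.09 to 1.33). Whether the ratio of KO to WT differs between tumor and normal lung was not tested.

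Tumor was set against normal lung within each genotype, using the libraries compared above. In WT, 3 members were higher in tumor (C1qb, Cfb and C3ar1), where 21.6% of 11238 genes were, and 2 were lower (C3 and C5ar1), where 26.3% were. Counts over 8 genes are too small to set complement apart from those shares. The ratio of tumor to normal was 2.10 (1.81 to 2.44) for C3ar1, 1.59 (1.52 to 1.67) for C1qb and 2.50 (1.31 to 4.89) for Cfb. It was 0.554 (0.469 to 0.652) for C3 and 0.606 (0.530 to 0.693) for C5ar1. Without cluster 5.2, C3ar1 (1.93) and C3 (0.518) stayed past 1.5-fold, while C1qb stood at 1.28, Cfb at 1.29 and C5ar1 at 0.870. Cfp had a ratio of 0.716 (0.623 to 0.822), but 1.12 as a mean of each cell's CPM. The makeup of the class also differed. Nonclassical monocyte-like cells were 308 of its 567 normal WT cells but 14 of its 225 tumor WT cells. In the macrophage-like part, C3ar1 stood at 0.781 (0.667 to 0.913) and C1qb at 0.699 (0.667 to 0.732). In the classical monocyte-like part they stood at 48.2 (15.9 to 239, with 3 normal UMIs) and 3.89 (3.01 to 5.07).

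In Rab37 KO, 2 members were higher in tumor (Cfp and C3ar1), where 18.2% of 12495 genes were, and 0 were lower, where 22.9% were. C3ar1 had a ratio of 2.24 (2.01 to 2.50) and Cfp one of 2.32 (2.13 to 2.53). Here too the makeup of the class differed, and its part in the ratios was not tested. Nonclassical monocyte-like cells were 246 of its 498 normal KO cells but 56 of its 850 tumor KO cells. Their largest cluster, 12, held 1.05 CPM of C3ar1 in normal KO. Cfp is X-linked, and Xist had 2017 UMIs in the normal KO class and 0 in the tumor KO class. Its ratio therefore cannot be told apart from a difference in sex. With clusters weighted alike, C3ar1 stood at 1.68 and Cfp at 1.14. That weighting left out clusters 5.0, 5.1, 5.2 and 5.3, among others. These held 262, 202, 47 and 69 of the 850 tumor KO cells and 0, 0, 1 and 2 normal KO cells. C3 was at 0.699 (0.626 to 0.782), and at 1.21 with clusters weighted alike. C5ar1 was at 1.38 (1.28 to 1.48) and summed C1q at 0.972 (0.952 to 0.993). The median log2 ratio over the members was 0.35 in WT and 0.08 in KO, beside -0.06 and -0.09 over all genes. In cluster 14 alone, summed C1q was 1.40-fold (1.33 to 1.47) of the normal level in WT tumor (11 cells) and 1.29-fold (1.26 to 1.32) in KO tumor. Dendritic cell-like cells of KO tumor held Cfp at 7.59-fold (6.47 to 8.93) of the normal level, and at 3.34-fold with clusters weighted alike. The latter left out cluster 11.4, which held 36 of the 58 tumor KO cells and no normal cell.

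**Figure D4:**
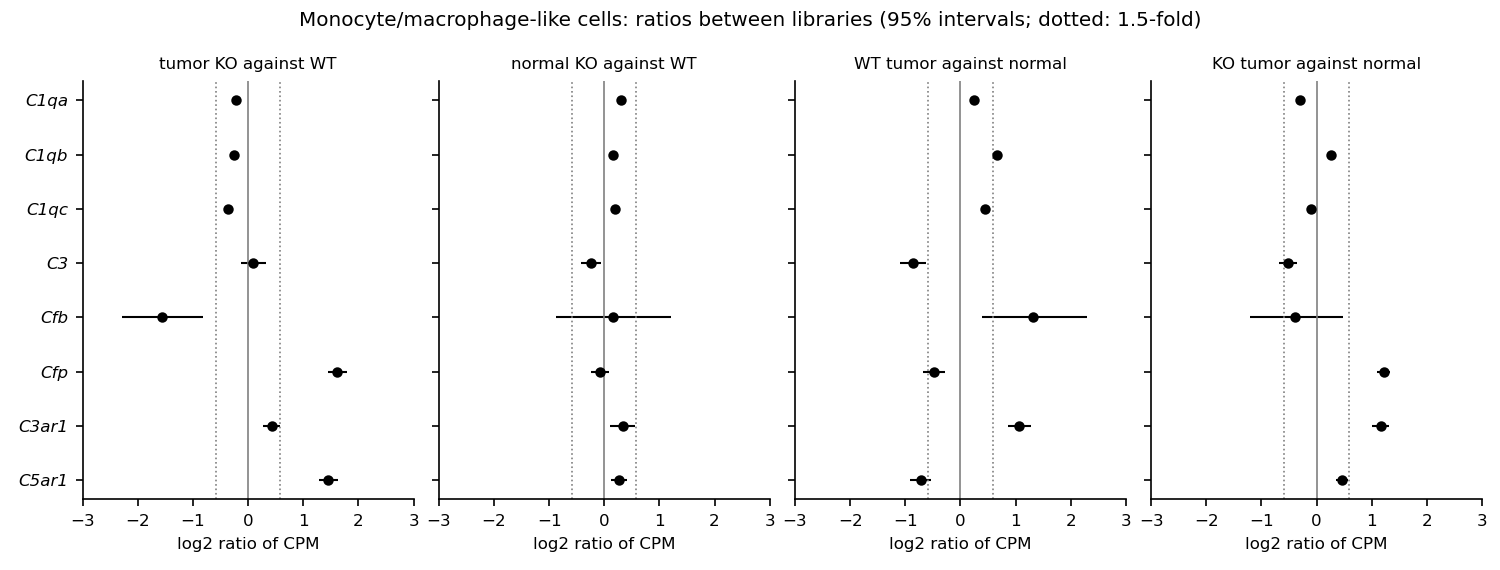
Log2 ratio of each complement gene in the monocyte/macrophage-like class in the 4 comparisons, with 95% intervals from counting error; dotted lines mark 1.5-fold. Cfp and C5ar1 lay above the upper line in tumor KO against WT, no member passed a line in normal KO against WT, and C3ar1 lay above the upper line in both comparisons of tumor with normal lung.

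The other genes of the system were taken from a list of 41, of which 40 were in the files; C4a was not analysed here. In the monocyte/macrophage-like class of tumor, 18 had enough UMIs, of which 8 were higher and 4 lower in KO than in WT, against the shares of 23.0% and 21.3% over all genes. For some of these, such as Hc and Clu, the Poisson intervals of the libraries overlapped. Fcna, a ficolin that recognises sugars in the lectin pathway, stood at 139, 54.2, 4.23 and 58.2 CPM. C4b, which encodes the C4 of the classical and lectin pathways, stood at 79.3, 59.1, 6.34 and 54.4 CPM, so tumor WT was the low library for both. The ratio of tumor KO to WT was 13.8 (7.84 to 26.8) for Fcna and 8.58 (5.39 to 14.6) for C4b. C4b was a leading gene of cluster 22, which had 38 tumor KO cells and no tumor WT cell. With doublets kept, Fcna was a leading gene of the cluster led by Ccl12, with 10 tumor WT and 86 tumor KO cells. Ratios of these 2 genes within clusters are not given, and the part of cluster makeup was not tested. Vsig4, a macrophage receptor for C3 fragments, had 44 UMIs in tumor KO and 0 in tumor WT, at least 2.98-fold higher against a floor of 3 counts per library. C5ar2, the second C5a receptor, had a ratio of 2.16 (1.47 to 3.31). Among integrin chains of the complement receptors, Itgam was 1.81-fold (1.71 to 1.92) and Itgax 0.377-fold (0.326 to 0.438) of the WT level, while their partner Itgb2 was 0.789-fold (0.741 to 0.841). Colec12, a scavenger collectin, had a ratio of 0.352 (0.180 to 0.715) and C1ra, the C1r protease gene, one of 0.508 (0.318 to 0.834).

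In normal lung 18 of the 40 had enough UMIs, with 5 higher and 1 lower in KO, beside 7.89% and 7.06% over all genes. Among the higher ones, the Poisson intervals of KO and WT overlapped for C1ra (11 against 6 UMIs), C2 (6 against 4) and Colec12 (44 against 28). The lower one was Fcna, at 0.391 (0.334 to 0.455). Cd93, a surface lectin once described as a C1q receptor, was higher in KO in normal lung (138 against 79.7 CPM) and in tumor (273 against 130). Cr2, the B cell receptor for C3d, was at 5.18 CPM in KO and 0.896 in WT, from 22 and 4 UMIs (ratio 5.79, 1.96 to 23.1). Cluster 16.1 of the class also scored 0.68 for B cell markers, and its part in the Cr2 level was not tested. In tumor against normal lung, 5 of 16 were higher and 6 lower in WT, beside 21.6% and 26.3% over all genes. In KO, 7 of 20 were higher and 7 lower, beside 18.2% and 22.9%. In both genotypes some of the counted genes, such as Cd59a, had overlapping Poisson intervals. Cd55, a membrane regulator that limits C3 cleavage, was lower in tumor in both genotypes, at 0.193 (0.105 to 0.332) of the normal level in WT and 0.163 (0.120 to 0.219) in KO. C6, a terminal component, stood at 7.39 and 6.83 CPM in normal lung and had no UMI in the class in either tumor library.

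Several other components shared the fibroblast-like maximum of C3. In normal KO fibroblast-like cells C1s1 reached 554 CPM, C1ra 305, C2 109, C4b 874, C7 364, Colec12 427, Cd59a 68.8 and Serping1, the C1 inhibitor gene, 1300. Clu (233 CPM) and Cd59b (22.4) were highest in normal WT fibroblast-like cells. Hc, the mouse C5 gene, reached 406 CPM and C6 31.7 CPM in normal KO epithelial-like cells. Among the genes highest in blood cells, Cr2 reached 98.4 CPM and Cd55 430 in B-like cells, Cr1l 108 in NK-like cells and C5ar2 48.3 in neutrophil-like cells. Itgax (417 CPM) and Itgb2 (733) were highest in alveolar macrophage-like cells and Itgam (868) in classical monocyte-like cells. Fcna (374) and Vsig4 (46.0) were highest in macrophage-like cells and Cd93 (792) in endothelial-like cells. The values of Cd55, Itgax and Itgb2 came from tumor WT, with 55 B-like and 24 alveolar macrophage-like cells. Mbl1, Mbl2, C8a, C8b and Cfi, known as liver products, had no UMI in any class with enough cells.

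The genes whose levels ran most like each member were sought over 47 class-by-library points among 7189 genes, by Pearson r of log2(CPM + 10). The points come from 4 libraries and share depth and free RNA, so r is a description. Summed C1q ran most like Ms4a7 (r = 0.85), Ccl12 (0.83) and Fam20c (0.80), and C3ar1 most like Ms4a7 (0.87), Ccl12 (0.86) and Pf4 (0.86). C5ar1 ran most like Cd33 (0.92), Msrb1 (0.91) and Fpr2 (0.90), a formyl peptide receptor of phagocytes. For Cfp they were Csf2rb2 (0.81), Pirb (0.78) and Csf2rb (0.77), the last a shared chain of cytokine receptors. For C3 they were Cebpd (0.81), Lamp2 (0.79) and Rhou (0.79), and for the sparse Cfb Fblim1 (0.84), Ahnak2 (0.83) and Il11ra1 (0.83).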

How the data were processed

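For each of 4 libraries, the authors deposited a 10x matrix of UMI counts, whole numbers with no normalization. Per the submitters' processing notes the build was mm10. The matrix software version was 3.0.1 (normal) or 3.1.0 (tumor), per the file headers. The aligner was not stated. Filters were 200 genes or more and up to 10% mitochondrial UMIs per cell. Called doublets were removed (3.41%, 1.69%, 0.464% and 0.147%), and 5183771 to 34369993 UMIs per library remained. Cells were clustered with scanpy 1.11.5 and leidenalg 0.10.2 (2000 variable genes, 30 components, 15 neighbours, resolution 1.0), without complement genes. Clusters whose second class scored at least 0.8 of the first were clustered again at resolution 0.2.

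Classes were named from listed markers, with a score of at least 0.6 and 3 detected markers. The scoring and leading-gene rule went through 4 versions after inspection of the clusters in tables that gave cells per library and members' levels, which bears on which tumor cells the monocyte/macrophage-like class holds. Macrophage-like and monocyte-like cells were to be compared apart, but clusters 5.1, 5.3 and 22 held more markers of a neighbouring class, so the pooled class and numbered clusters were compared. Members and lists were chosen with earlier results of these data known.

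Levels were summed UMIs as CPM with exact Poisson intervals, ratios had exact conditional binomial intervals and shares Clopper-Pearson intervals, all at 95%. Ratios needed 10 UMIs over both libraries, and ratios of classes 20 cells in each. Ratios within single clusters were given below 20 cells too. Shares used cells thinned to 1500 UMIs. With 1 library per group no test was made; scripts were tested on simulated data. Named genes were the 8 members, other complement genes with at least 20 CPM in a class or past 1.5-fold with Poisson intervals apart, and the 3 genes most like each member. A further gene that met this rule is not reported here. Alternatives changed the filters, doublets, resolution, class rule, weighting, thinning and fold, and left out cells or clusters. Weighting clusters alike left out any cluster with under 5 cells in either library.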

Additional observations from a re-analysis of the deposited data

Results flagged for a closer look

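Fcna, the ficolin gene, went in opposite directions between Rab37 KO and WT in the monocyte/macrophage-like class of the 2 tissues. Its ratio of KO to WT was 13.8 (7.84 to 26.8) in tumor, where it stood at 58.2 CPM in KO and 4.23 in WT. In normal lung the ratio was 0.391 (0.334 to 0.455), with 54.2 CPM in KO and 139 in WT. The difference between the tissues was not tested, since each value rests on 1 library. Ratios of Fcna within clusters are not given.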

How the results depend on the processing

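Of 112 alternative counts of members past 1.5-fold, 102 stayed within 1.5 times the reported count and 10 moved. In tumor KO against WT, Cfp and C5ar1 were the 2 higher members in every alternative run. The lower members there were 2 (C1qc and Cfb) by the mean of each cell's CPM and 0 without cluster 5.2. In WT tumor against normal, 1 member was higher (C3ar1) and 1 lower (C3) without cluster 5.2, 1 was lower (C3) by the mean of each cell's CPM, and 0 were lower at 2-fold. In KO tumor against normal, 1 was higher (C3ar1) with clusters weighted alike. There, 1 was lower with each cell classed by its own markers (C3), 1 by the mean of each cell's CPM (C1qa) and 1 with clusters weighted alike (Cfb). Of 692 alternative ratios, 563 stayed within their counting intervals, 128 moved and 1, among those past 1.5-fold as reported, changed direction: Cfp in alveolar macrophage-like cells of tumor KO against WT, 0.683 with cells classed by their own markers and 1.62 as reported, from 24 WT cells. Counting ratios of any size, 23 of 64 changed direction in at least 1 alternative, such as C1qc in KO tumor against normal (0.717 to 1.22) and C3 in the same comparison (0.636 to 1.21), both in the monocyte/macrophage-like class, and C3 in neutrophil-like cells of tumor KO against WT (0.757 from the mean of each cell's CPM, 1.17 as reported). Of 32 alternative shares, 15 stayed and 17 moved. The cause of these changes was not tested. Leaving out cluster 5.0 or 5.2 was chosen after seeing the data. The tumor KO class fell to 587 cells with doublets kept and 593 at resolution 2.0. In both settings a cluster led by Ppbp, Arg1 and Pf4, like 5.0, was unnamed and so outside the class. It held 249 tumor KO cells with doublets kept and 245 at resolution 2.0. The naming of cluster 5.0 as monocyte/macrophage-like thus depended on the setting. No paired analysis was possible because each group had 1 library.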
